A study of Drosophila melanogaster with 15 samples.

Results

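Insects fight infection with small antimicrobial peptides that are secreted into the body fluid, and in Drosophila the genes for these peptides are switched on by the Toll and Imd pathways. In the Toll pathway, serine proteases of the body fluid cleave the ligand Spätzle, the Toll receptor signals through an adaptor complex, the inhibitor Cactus is destroyed, and the NF-κB factors Dorsal and Dif enter the nucleus. In the Imd pathway, peptidoglycan binding to recognition proteins activates a kinase complex and the NF-κB factor Relish. The fat body, the haemocytes (blood cells) and barrier epithelia are the known places of this response.

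10 genes of these pathways were named: the peptide genes Mtk, DptB, Def, Drs and AttC, the recognition protein gene PGRP-SB1, the NF-κB factor genes dl and Rel, the inhibitor gene cact and the serpin gene nec. 9 of the 10 had an array probe set that carried their symbol alone, out of 11982 genes with such a probe set, and AttC was not analysed here. The genes were chosen with earlier results of these data known, so a share above that of all genes does not show an excess. The 9 genes were read by 11 probe sets, of which dl and cact had 2 each. The identifiers were 1627613_at for Mtk, 1638235_at for DptB, 1634271_at for Def, 1635189_at for Drs, 1636490_at for PGRP-SB1, 1639692_s_at for dl, 1627376_at for Rel, 1636926_s_at for cact and 1636653_at for nec, with 1623415_at and 1629899_at as the second probe sets of dl and cact.

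The tissue was the wing imaginal disc, the larval epithelium that forms the adult wing, from larvae of the third instar raised at 25 °C after egg collections of 2 h. In avl-RNAi larvae a single chromosome held both Rn-GAL4 and UAS Avl RNAi (over +), so that the driver expressed RNAi against avl, the gene of an early endosomal syntaxin now named Syx7, and the labels call these discs neoplastic. Control larvae were Rn-GAL4/+ without the RNAi construct, and their discs are labelled wild type. Both genotypes were w- in a w1118 background and elav-GAL80/+, a transgene that blocks GAL4 in neurons. rn-GAL4 is active mainly in the wing pouch, whereas RNA came from whole discs. There were 3 arrays each of avl-RNAi at 92, 116 and 168 h after egg deposition and of control at 92 and 116 h, 15 in all, with no control at 168 h. avl had no probe set of its own, so the knockdown could not be read from the arrays.

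The values are log2 hybridization signals as deposited. Each array had a mean of 6.01 and a median between 4.74 and 4.79. All 10 measured markers of the wing disc epithelium lay above the array median on every array, and so did 5 or 6 of 6 fat body markers and 11 to 15 of 18 gut markers on the arrays of control discs at 92 h. Genes count as called, and the words rose and fell are used, where limma's p, adjusted over all 11982 genes of a comparison, was under 0.05. Between genotypes these words mean higher or lower in avl-RNAi than in control discs, not a change with time. Every difference is on the log2 scale, with ± its standard error where one is printed and 3 arrays in each group. The table holds no detection calls. Levels of Mtk, DptB and Drs lay below or near the array medians in most groups, where a probe set is not shown to be above background, so no fold is given for them. The lower groups of PGRP-SB1, Def and nec, and of the genes pirk, psh and SPE named further below, lay not far above these medians. Folds of these genes carry the same limit. The labels do not say whether arrays of a group came from separate cultures, so the p-values measure the spread between these samples, which may be technical. Fewer cells of a type and less RNA per cell cannot be told apart in whole discs.

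The first comparison asks what the knockdown did to these genes early, at 92 h. The signals of 3 antimicrobial peptide genes and of PGRP-SB1 were lower in avl-RNAi discs than in control discs of the same age, and Mtk differed most. Mtk encodes metchnikowin, a proline-rich peptide. Its level was 4.28, 4.29 and 4.31 in avl-RNAi discs, against 5.74, 5.12 and 6.56 in control discs. The avl-RNAi arrays lay close together, below every control array, and the control arrays spread widely. The difference was -1.51 ± 0.24 (adjusted p = 0.00257, limma), and the avl-RNAi levels were below every array's median.

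DptB encodes diptericin B, a glycine-rich peptide that is a classical Imd target. Its level was 4.75, 4.53 and 4.66 in avl-RNAi discs, against 5.86, 4.87 and 6.04 in control discs. The groups did not overlap, but control replicate 2 lay close to the avl-RNAi arrays. DptB fell by 0.94 ± 0.23 (adjusted p = 0.0337, limma). Def encodes defensin, which acts chiefly on Gram-positive bacteria, and had 5.28, 5.17 and 5.0 in avl-RNAi discs, against 6.11, 5.33 and 6.03 in control discs. As with DptB, control replicate 2 was the lowest control array. Def fell by 0.67 ± 0.17 (1.60-fold lower in avl-RNAi discs, adjusted p = 0.0398, limma).

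PGRP-SB1 encodes a secreted peptidoglycan recognition protein of the amidase type. Its level was 4.96, 5.05 and 5.04 in avl-RNAi discs, against 6.19, 5.33 and 5.67 in control discs, again without overlap and again with control replicate 2 the lowest of its group. PGRP-SB1 fell by 0.71 ± 0.16 (1.64-fold lower in avl-RNAi discs, adjusted p = 0.0192, limma). Drs encodes drosomycin, an antifungal peptide and the usual reporter of Toll signalling. Drs had 4.21, 4.28 and 4.39 in avl-RNAi discs, against 4.41, 4.54 and 4.55 in control discs. The groups lay apart by a narrow margin, and the difference of -0.21 ± 0.10 was not called (95% interval -0.41 to 0.0015, adjusted p = 0.299, limma).

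At 92 h, 4 of the 9 genes were called, all lower in avl-RNAi discs. Over all genes 4.48% were called at this age, 2.44% higher and 2.04% lower in avl-RNAi discs. The arrays of both groups did not overlap for 6 of the 9 genes, against 24% of all genes. dl, which encodes Dorsal, was 1 of these 6 with a difference of -0.11 ± 0.06 that was not called. Rel (0.03 ± 0.07), cact (-0.01 ± 0.05) and nec (0.33 ± 0.16) were not called either.

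**Figure D1:**
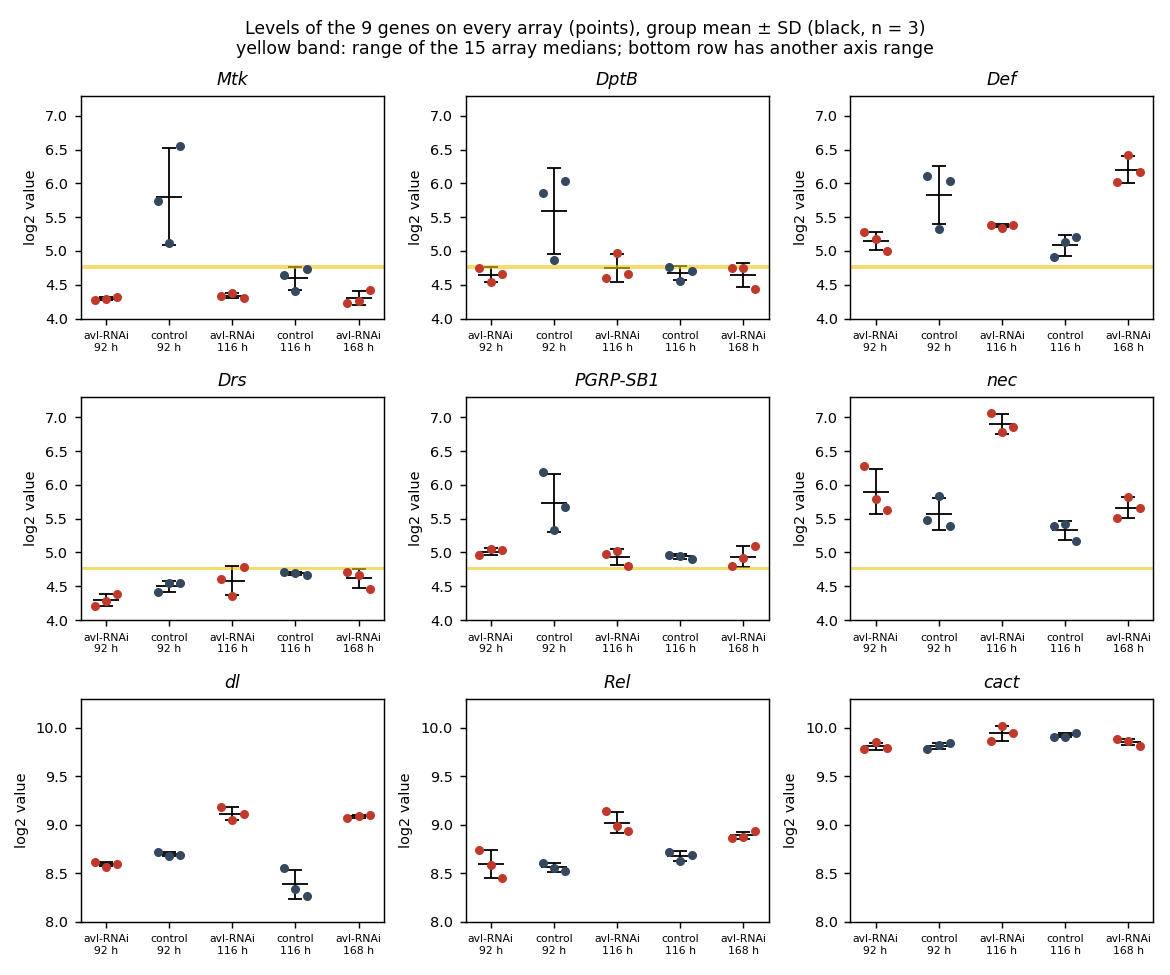
log2 values of the 9 genes on the 15 arrays (points), by genotype and age, with the group mean and SD in black (n = 3). Mtk, DptB and PGRP-SB1 stand highest in control discs at 92 h, Def in avl-RNAi discs at 168 h, and nec in avl-RNAi discs at 116 h. The bottom row (dl, Rel, cact) has another axis range, and the yellow band is the range of the array medians.

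The control arrays of 92 h differed from each other, so the arrays of that age were set beside markers of other tissues. In control discs, Mtk, DptB, Def and PGRP-SB1 were higher in replicates 1 and 3 than in replicate 2. Mean log2 levels of the 6 fat body markers were 9.45, 9.80 and 8.28 in avl-RNAi discs, against 9.10, 9.25 and 8.67 in control discs. Control replicate 2 was the highest of its group. The 16 haemocyte markers averaged 6.52, 6.52 and 6.61 in avl-RNAi discs, against 6.02, 6.27 and 6.48 in control discs. The 18 gut markers averaged 6.85, 5.98 and 6.28 in avl-RNAi discs, against 6.74, 6.76 and 5.0 in control discs, and control replicate 3, the array with the most Mtk, had the fewest gut transcripts. The 12 muscle markers averaged 8.02, 7.88 and 8.30 in avl-RNAi discs, against 7.29, 7.53 and 7.68 in control discs.

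Of the fat body, haemocyte, gut, muscle and trachea lists, none had control replicates 1 and 3 both above replicate 2. The 11 salivary gland markers did (4.64, 4.60 and 4.70 in the control arrays, 4.61, 4.55 and 4.47 in the avl-RNAi arrays). At 92 h, 1 of 6 fat body markers was called (Tsf1, 0.41 higher in avl-RNAi discs), and 0 of 16 haemocyte, 0 of 18 gut, 0 of 12 muscle and 0 of 8 trachea markers were called in limma. At an unadjusted p under 0.05 these were 3 haemocyte (2 higher), 1 gut, 8 muscle and 3 trachea markers, and the muscle and trachea markers were all higher in avl-RNAi discs. With the mean levels of fat body, gut and muscle markers in the limma fit, Mtk still fell by 1.52 ± 0.24 (adjusted p = 0.0164), while DptB at -0.93 ± 0.31 (adjusted p = 0.236), Def at -0.57 ± 0.26 (adjusted p = 0.379) and PGRP-SB1 at -0.56 ± 0.23 (adjusted p = 0.341) were no longer called. Over all genes that fit called 154, against 537 without these covariates. The haemocyte, trachea and salivary gland lists were not in that fit. Whether the content of other tissues accounts for the differences at 92 h was not tested.

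Leaving out any avl-RNAi array of 92 h or control replicate 3 left 1 of the 4 calls, that of Mtk. Leaving out control replicate 1 left 2, and leaving out control replicate 2 kept all 4. Mtk was called in all 6 of these fits, with an adjusted p of at most 0.0115 (limma). Fitting the arrays of 92 h alone gave 0 calls among the 9 genes and 345 among all genes, with Mtk closest to a call (adjusted p = 0.0632, limma).

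**Figure D2:**
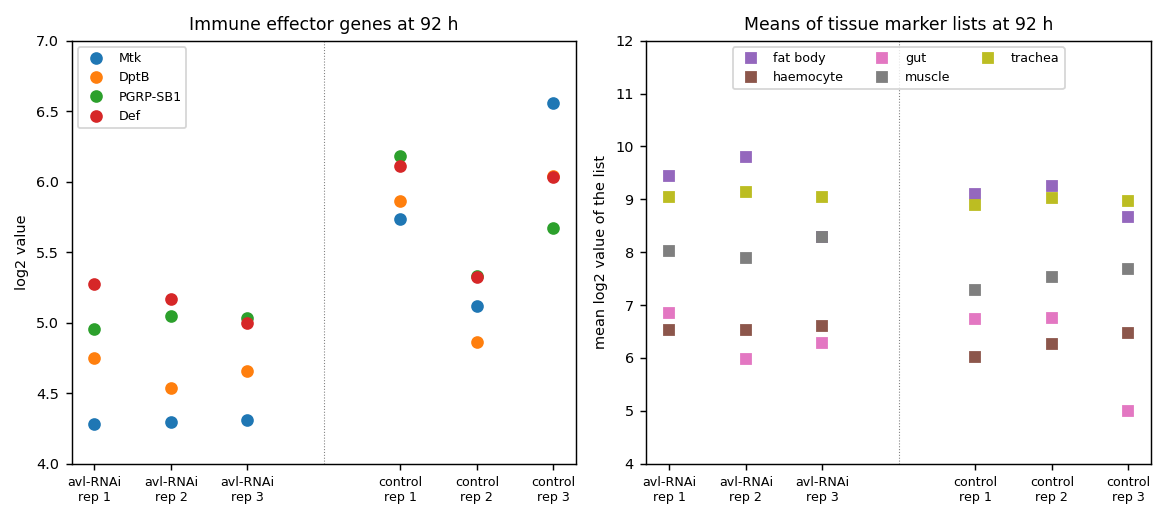
The 6 arrays of 92 h, with avl-RNAi left of control. The left panel gives the log2 values of Mtk, DptB, PGRP-SB1 and Def, where control replicate 2 lies lowest of its group, and the right panel the mean log2 level of each tissue marker list, where the gut list is lowest in control replicate 3.

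At 116 h, the NF-κB factor genes dl and Rel and the serpin gene nec rose in avl-RNAi discs, and 0 of the 9 genes fell. Over all genes 31.7% were called at this age, 12.6% higher and 19.1% lower, so 3 of 9 was close to the share of all genes. dl had 9.18, 9.05 and 9.11 in avl-RNAi discs, against 8.55, 8.33 and 8.26 in control discs. Every avl-RNAi array was above every control array, by 0.73 ± 0.06 on average (1.66-fold, adjusted p = 1.06e-06, limma). The second probe set of dl gave 0.42 ± 0.20 in the same direction and was not called (adjusted p = 0.173, limma).

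Rel encodes Relish, the NF-κB factor of the Imd pathway. Its level was 9.14, 8.98 and 8.93 in avl-RNAi discs, against 8.72, 8.62 and 8.68 in control discs, without overlap. The rise was 0.34 ± 0.07, or 1.27-fold (adjusted p = 0.0019, limma), and with the fat body, gut and muscle levels in the fit it was 0.40 ± 0.14 and not called (adjusted p = 0.124). Dif, the other NF-κB factor of the Toll pathway, was 0.24 ± 0.11 higher in avl-RNAi discs, without overlap, and was not called (adjusted p = 0.115, limma). cact encodes the IκB-type inhibitor that holds Dorsal and Dif in the cytoplasm. cact had 9.87, 10.01 and 9.94 in avl-RNAi discs, against 9.91, 9.91 and 9.94 in control discs, with overlapping arrays. Its difference was 0.02 ± 0.05, with a 95% interval from -0.08 to 0.12. The second probe set of cact was at -0.31 ± 0.11, just short of a call (adjusted p = 0.0505, limma), so the probe sets of cact disagreed in sign.

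nec encodes Necrotic, a serpin that restrains the protease Persephone upstream of Toll. Its level was 7.07, 6.79 and 6.86 in avl-RNAi discs, against 5.40, 5.43 and 5.17 in control discs. nec rose by 1.58 ± 0.16, or 2.98-fold (adjusted p = 4.27e-06, limma), the largest difference among the 9 genes at this age. dl and nec were called in every leave-one-out and alternative fit of this comparison that measured them.

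None of the peptide genes was called at 116 h. Mtk had 4.33, 4.38 and 4.31 in avl-RNAi discs, against 4.64, 4.40 and 4.74 in control discs. Def had 5.39, 5.35 and 5.38 in avl-RNAi discs, against 4.91, 5.13 and 5.21 in control discs. The groups of both genes did not overlap, Mtk with avl-RNAi discs lower and Def with avl-RNAi discs higher, and neither was called (Mtk -0.26 ± 0.24, adjusted p = 0.491, and Def 0.29 ± 0.17, adjusted p = 0.242, limma). In all, 5 of the 9 genes had groups that did not overlap, against 40.5% of all genes. With the 2 compared groups alone in the fit, Def was called (adjusted p = 0.0459, limma). DptB (0.07 ± 0.23), Drs (-0.11 ± 0.10) and PGRP-SB1 (-0.01 ± 0.16) were not called. The 95% intervals still allow differences from -0.42 to 0.56 for DptB and from -0.35 to 0.33 for PGRP-SB1.

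Markers of other tissues moved at 116 h. Muscle markers averaged 7.03 ± 0.26 in avl-RNAi discs and 6.22 ± 0.36 in control discs (SD, n = 3 each), with 8 of 12 called higher. Fat body markers averaged 9.25 ± 0.77 in avl-RNAi discs and 8.61 ± 0.88 in control discs, with Tsf1 higher by 1.60 and Fbp1 lower by 2.36. Of the others, 2 haemocyte markers rose and 1 fell among 16, 4 trachea markers rose and 2 fell among 8, 0 of 18 gut markers were called in limma (0 at an unadjusted p under 0.05), and 5 of 10 epithelium markers fell. The gut list averaged 5.28, 5.13 and 5.18 in avl-RNAi discs, against 4.92, 6.58 and 4.81 in control discs, with control replicate 2 far above the others. With the mean levels of the fat body, gut and muscle lists as covariates dl (0.61 ± 0.12, adjusted p = 0.0121) and nec (1.45 ± 0.27, adjusted p = 0.00668) were still called in limma. The log2 of the summed fat body signal ranged from 12.3 to 13.8 in avl-RNAi discs and from 11.0 to 13.1 in control discs.

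**Figure D3:**
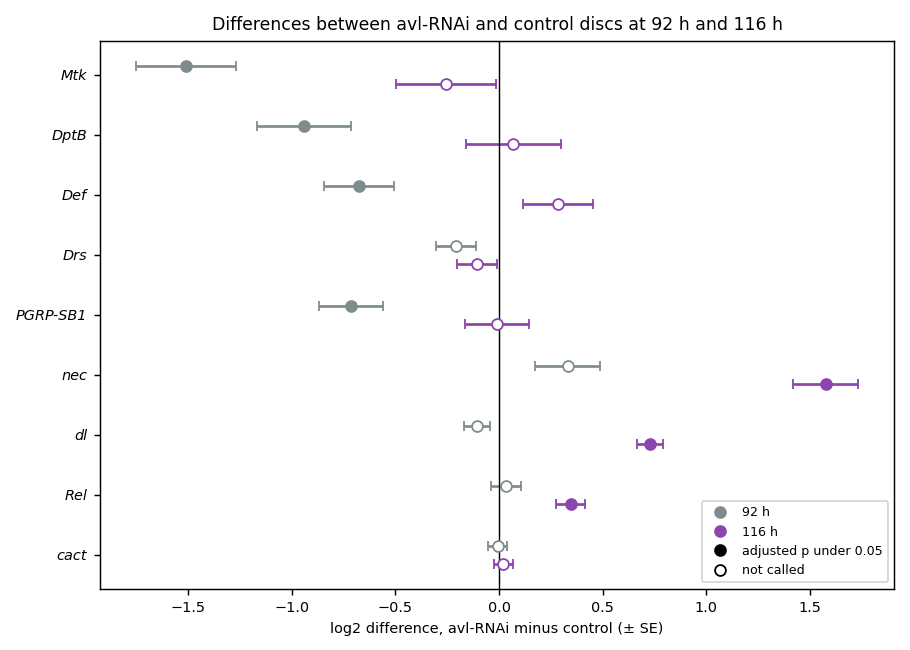
log2 differences of avl-RNAi from control discs (points, with SE as bars) at 92 h and 116 h; filled points passed an adjusted p under 0.05. The 4 filled points at 92 h lie left of 0 and the 3 at 116 h right of 0.

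The difference between genotypes changed with age for 7 of the 9 genes, in the same limma model, against 18.2% of all genes. All 7 changes were upward, against 7.62% upward and 10.5% downward over all genes. Because the genes were chosen with earlier results known, these shares do not show an excess. The change was 1.25 ± 0.34 for Mtk (adjusted p = 0.0212), 0.96 ± 0.24 for Def (adjusted p = 0.013), 0.83 ± 0.09 for dl (adjusted p = 2.24e-05) and 1.24 ± 0.22 for nec (adjusted p = 0.00157). It was 1.01 ± 0.32 for DptB, 0.70 ± 0.22 for PGRP-SB1 and 0.31 ± 0.10 for Rel, with adjusted p-values of 0.045, 0.0412 and 0.0469. These last changes were not called in most leave-one-out fits: DptB was called in 1, PGRP-SB1 in 3 and Rel in 2 of 12. Without control replicate 2 of 116 h the change of Mtk had an adjusted p of 0.0523, and 3 of the 9 genes were called. The second probe set of dl changed by 0.49 ± 0.28 and was not called (adjusted p = 0.324, limma).

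Control discs of 116 h were compared with control discs of 92 h to give the change with age without the knockdown. The 3 peptide genes and PGRP-SB1 fell with age. The control arrays of 92 h also enter the difference at 92 h and its change with age, so these results are not independent. Mtk fell by 1.21 ± 0.24 between the ages, DptB by 0.91 ± 0.23, Def by 0.74 ± 0.17 and PGRP-SB1 by 0.79 ± 0.16. Their adjusted p-values were 0.00184, 0.00821, 0.00492 and 0.00176 (limma), and all 4 calls were kept in each of 6 leave-one-out fits. dl fell as well, by 0.31 ± 0.06 (adjusted p = 0.00203), which made 5 of 9, against 27% of all genes, 13.2% higher and 13.8% lower at 116 h. The second probe set of dl was at -0.51 ± 0.20 and not called (adjusted p = 0.102, limma). Drs (0.19), Rel (0.12) and cact (0.11) were higher at 116 h without a call. The ages did not overlap for 8 of the 9 genes, against 42.7% of all genes. With fat body, gut and muscle levels in the fit, Mtk was at -1.29 ± 0.42, DptB at -1.0 ± 0.54, Def at -0.97 ± 0.44 and PGRP-SB1 at -1.13 ± 0.39, at least as far from 0 as before but with larger errors, and dl was at -0.18 ± 0.16. None of these 5 was called in that fit (adjusted p from 0.146 to 0.66, limma), which called 299 genes in all. In the same comparison 10 of 12 muscle markers fell, 3 of 6 fat body markers fell and 1 rose, and 6 of 11 salivary gland markers rose.

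In avl-RNAi discs, nec, dl, Rel, Drs and cact rose between 92 and 116 h. These were 5 of the 9 genes, against 35.4% of all genes, 14.8% higher and 20.6% lower at 116 h. nec rose by 1.0 ± 0.16 (adjusted p = 2e-04), dl by 0.52 ± 0.06 (adjusted p = 2.37e-05), and Rel by 0.43 ± 0.07 (adjusted p = 0.000315). Drs rose by 0.29 ± 0.10 (adjusted p = 0.0313), with overlapping arrays, at 4.61, 4.36 and 4.78 at 116 h and 4.21, 4.28 and 4.39 at 92 h. cact rose by 0.13 ± 0.05 (adjusted p = 0.0357), and with its probe sets averaged it was at -0.02. Drs and cact were each called in 2 of 6 leave-one-out fits. Mtk (0.04 ± 0.24), DptB (0.10 ± 0.23), Def (0.22 ± 0.17) and PGRP-SB1 (-0.08 ± 0.16) were not called. The ages did not overlap for 5 genes, against 42.3% of all genes.

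The call of dl rested on 1 of its probe sets: the second was at -0.02 ± 0.20, and the average of both at 0.25 ± 0.11 was not called (adjusted p = 0.0891, limma). With fat body, gut and muscle levels in the fit nec and dl were still called, and Rel (0.37 ± 0.15, adjusted p = 0.132), Drs (0.52 ± 0.17, adjusted p = 0.0588) and cact (0.07 ± 0.09, adjusted p = 0.708) were not. Between these ages 8 of 12 muscle, 2 of 6 fat body and 2 of 18 gut markers fell in avl-RNAi discs, and 5 of 8 trachea and 5 of 11 salivary gland markers rose.

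At 168 h, an age without control arrays, avl-RNAi discs were set against avl-RNAi discs of 116 h. Def rose and nec fell. Def had 6.02, 6.42 and 6.17 at 168 h, against 5.39, 5.35 and 5.38 at 116 h, so the groups were far apart. The rise was 0.83 ± 0.17, or 1.78-fold (adjusted p = 0.00239, limma). nec had 5.51, 5.83 and 5.66 at 168 h, against 7.07, 6.79 and 6.86 at 116 h. It fell by 1.24 ± 0.16, or 2.36-fold (adjusted p = 6.77e-05, limma). 2 of 9 genes were called, against 27% of all genes, 15.5% higher and 11.5% lower, and the ages did not overlap for the same 2 genes, against 39.3% of all genes. Both calls were kept in each leave-one-out fit and neither in the fit with fat body, gut and muscle levels (Def 0.51 ± 0.57, nec -0.85 ± 0.44), where 48 genes were called in all.

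The other 7 genes were not called. At 168 h Mtk had 4.23, 4.26 and 4.42, and its difference from 116 h was -0.03 ± 0.24. DptB had 4.75, 4.74 and 4.43, and PGRP-SB1 had 4.80, 4.92 and 5.10. dl had 9.07, 9.09 and 9.10, with a 95% interval of the difference from -0.16 to 0.11. The levels of these genes at 168 h overlapped those at 116 h. Between these ages 4 of 6 fat body markers and 8 of 12 muscle markers fell, and 4 haemocyte markers rose and 4 fell among 16. The haemocyte genes eater, which encodes a phagocytic receptor, and NimC1, of the same receptor family, were among those that rose, by 1.67 and 0.95, and Nplp2 and PPO1, the prophenoloxidase gene of crystal cells, were among those that fell: Nplp2 fell by 4.53 and PPO1 fell by 2.69. The haemocyte list as a whole averaged 6.25 ± 0.08 at 168 h and 6.52 ± 0.67 at 116 h (SD, n = 3 each). Its part in the rise of Def was not tested.

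Against control discs of 116 h, which were younger, avl-RNAi discs of 168 h had more Def (1.12 ± 0.17, 2.17-fold, adjusted p = 0.000252), more dl (0.70 ± 0.06, adjusted p = 2.69e-06) and more Rel (0.22 ± 0.07, adjusted p = 0.04, limma). These were 3 of 9 genes, against 25.6% of all genes, 12% higher and 13.7% lower, and 5 of 9 had groups that did not overlap, against 41.2% of all genes. Rel was not called in any of 6 leave-one-out fits. The second probe set of dl was at 0.44 ± 0.20 and not called (adjusted p = 0.164, limma). nec differed by 0.33 ± 0.16, was not called (adjusted p = 0.152) and had arrays that did not overlap. With fat body, gut and muscle levels in the fit dl was still called, and Def (0.94 ± 0.32, adjusted p = 0.106) and Rel (0.19 ± 0.13, adjusted p = 0.478) were not. In this comparison 7 of 12 muscle markers fell and 2 rose, 5 of 11 salivary gland markers fell, and 3 haemocyte markers rose and 4 fell. Age and genotype cannot be told apart here.

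The order of the 5 groups differed between genes. Mtk, DptB and PGRP-SB1 were highest in control discs at 92 h (means 5.81, 5.59 and 5.73), and their other group means ranged from 4.30 to 4.59, 4.64 to 4.74 and 4.93 to 5.01. Def was highest in avl-RNAi discs at 168 h (6.20 ± 0.20), followed by control discs at 92 h (5.82 ± 0.43), which overlapped them, then avl-RNAi discs at 116 h (5.37 ± 0.02), avl-RNAi discs at 92 h (5.15 ± 0.14) and control discs at 116 h (5.09 ± 0.15), the last pair overlapping. nec was highest in avl-RNAi discs at 116 h (6.91 ± 0.15), then in avl-RNAi discs at 92 h (5.90 ± 0.33), avl-RNAi discs at 168 h (5.66 ± 0.16), control discs at 92 h (5.57 ± 0.24) and control discs at 116 h (5.33 ± 0.14). The 3 middle groups of nec overlapped each other, and the last pair overlapped too.

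dl overlapped in avl-RNAi discs at 116 h (9.11 ± 0.06) and 168 h (9.09 ± 0.02), and was lower in control discs at 92 h (8.70 ± 0.02) and avl-RNAi discs at 92 h (8.59 ± 0.02), and lowest in control discs at 116 h (8.38 ± 0.15). Rel was highest in avl-RNAi discs at 116 h (9.02 ± 0.11) and 168 h (8.89 ± 0.04), which overlapped, and its other groups lay between 8.56 and 8.67. Drs had its lowest mean in avl-RNAi discs at 92 h (4.29 ± 0.09) and its highest in control discs at 116 h (4.69 ± 0.02). The group means of cact ranged only from 9.81 to 9.94.

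Over the 15 arrays, the gene whose log2 values were most like those of Mtk was DptB (Pearson r = 0.916), followed by Afg3l2 (0.879) and Ktch (0.86). The genes most like DptB were Mtk, PGRP-SB1 (0.849) and tej (0.814). Those most like PGRP-SB1 were squ (0.864), DptB (0.849) and Ktch (0.844). Def was less like these peptide and recognition genes, with r = 0.317 to Mtk, 0.404 to DptB and 0.374 to PGRP-SB1. The genes most like nec were Spn42Da (0.959), tx (0.937) and Ilk (0.931). Those most like dl were Targ2 (0.954), rush (0.95) and moody (0.95), and those most like Rel were Arpc3A (0.966), Vps28 (0.958) and otk2 (0.957). For Def they were wech (0.81), Klp31E (0.801) and bi (0.799), for Drs ewg (0.859), bves (0.825) and stai (0.813), and for cact for (0.89), l(2)k09913 (0.87) and BOD1 (0.868). These values describe arrays that share 5 groups and are not independent points.

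Few of the other peptide genes were called. Of 34 further antimicrobial peptide and bomanin genes, 18 had a probe set of their own, and at 92 h 0 of the 18 were called in limma (2 were lower at an unadjusted p under 0.05), with a median difference of -0.04 against -0.01 over all genes. Over all genes 4.48% were called at 92 h. Between 2 and 4 of the 18 lay above the array median on any array of 92 h. At 116 h 1 of 18 rose and 0 fell, against 12.6% and 19.1% of all genes. The gene that rose was Listericin, which encodes an antibacterial peptide, with 3.96, 3.92 and 3.94 in avl-RNAi discs, against 3.77, 3.72 and 3.59 in control discs (0.24, adjusted p = 0.00607, limma). These levels are below every array's median.

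Of 16 recognition genes, 9 were measured. At 92 h 1 of 9 fell, against 2.04% of all genes. It was PGRP-LE (-0.26, adjusted p = 0.0391), an intracellular peptidoglycan receptor of the Imd pathway. At 116 h 3 of 9 rose and 1 fell, against 12.6% and 19.1% of all genes. pirk, which encodes an inhibitor of Imd signalling that binds the receptors, had 6.05, 5.93 and 6.06 in avl-RNAi discs, against 4.93, 4.81 and 4.86 in control discs. Every avl-RNAi array was above every control array, and pirk rose by 1.15 ± 0.12 (2.21-fold, adjusted p = 7.1e-06, limma). PGRP-LA (0.32) and GNBP2 (0.40) rose too, and GNBP3, which binds fungal glucan, was 0.37 lower in avl-RNAi than in control discs. Between 92 and 116 h GNBP3 rose in both genotypes, by 0.83 in avl-RNAi and 1.31 in control discs. pirk fell again by 0.68 ± 0.12 in avl-RNAi discs at 168 h relative to 116 h (adjusted p = 0.000885, limma).

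Of 20 Toll pathway genes, 19 were measured. At 92 h 1 rose (Traf4, 0.32) and 2 fell: Pli, which encodes Pellino, at -0.64, and the kinase gene Gprk2 at -0.26. Over all genes 2.44% rose and 2.04% fell at this age. At 116 h 5 of 19 rose and 7 fell, against 12.6% and 19.1% of all genes. The median was 0.07, against -0.02 over all genes. psh encodes Persephone, the protease that nec restrains, and had 6.61, 6.42 and 6.61 in avl-RNAi discs, against 5.20, 4.93 and 5.12 in control discs. It was 1.46 ± 0.09 higher in avl-RNAi discs (2.76-fold, adjusted p = 5.02e-08, limma). In control discs psh fell by 1.04 between 92 and 116 h, whereas in avl-RNAi discs it changed by 0.23 without a call.

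SPE encodes the enzyme that cleaves Spätzle. SPE had 5.10, 4.93 and 5.11 in avl-RNAi discs at 116 h, against 6.37, 6.33 and 6.39 in control discs. It fell by 1.32 ± 0.10 (2.49-fold, adjusted p = 2.36e-07, limma). Between 92 and 116 h SPE rose by 1.37 in control discs, and in avl-RNAi discs it differed by -0.05 without a call. The protease gene spirit (-0.54) and the receptor gene Tl (-0.35) were lower in avl-RNAi than in control discs at 116 h. The adaptor gene Traf4 was higher (0.94). In control discs spirit rose by 0.80 and Tl by 0.45 between 92 and 116 h. Both psh and Traf4 were higher, and SPE lower, in avl-RNAi discs of 168 h than in control discs of 116 h, by 1.87, 1.03 and -1.47.

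Of 20 Imd pathway genes, 18 were measured. At 92 h 0 of 18 were called in limma (3 at an unadjusted p under 0.05, median -0.03). At 116 h 3 of 18 rose and 4 fell (median -0.06), against 12.6% and 19.1% of all genes. IKKbeta, the kinase that phosphorylates Relish, had 8.14, 7.94 and 7.93 in avl-RNAi discs, against 7.61, 7.64 and 7.61 in control discs. It rose by 0.38 ± 0.06 (1.30-fold, adjusted p = 0.000428, limma). dnr1, a repressor of the pathway, rose by 0.73, and the deubiquitinase genes scny and CYLD fell by 0.27 and 0.26. In avl-RNAi discs between 92 and 116 h, 8 of 18 Imd genes rose and 4 fell, against 14.8% and 20.6% of all genes. dnr1 (1.07), key (0.46), the regulatory subunit of the same kinase complex, and IKKbeta (0.46) were among those that rose. Ntf-2 (-0.40), with the smallest adjusted p of the list, was among those that fell.

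**Figure D4:**
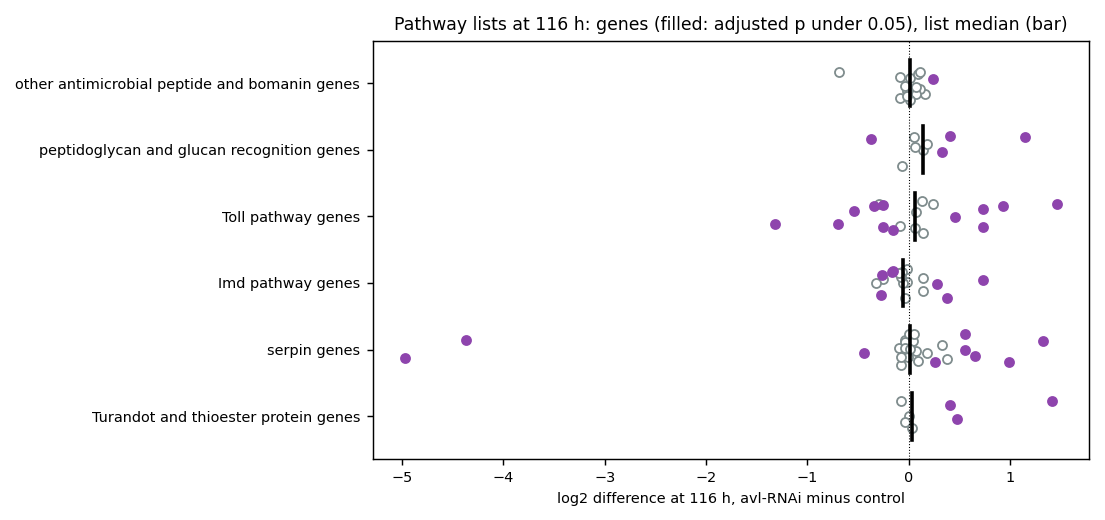
log2 differences of avl-RNAi from control discs at 116 h for the measured genes of the pathway lists (filled points passed an adjusted p under 0.05, bars are list medians). The medians lie near 0 while single genes go both ways: Spn43Aa at -4.97 and Spn100A at -4.37 lie far left, psh at 1.46 right.

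nec lies in a cluster of serpin genes. In the order of protein-coding genes of the RefSeq annotation (Release 6 plus ISO1 MT), Spn43Ad is the next gene on the lower side, followed by Spn43Ab, and Spn43Aa is 5 genes away. Spn43Ad had 4.14, 3.97 and 4.02 in avl-RNAi discs at 116 h, against 4.13, 3.94 and 4.08 in control discs, and was not called (0.00 ± 0.08). Its levels are below every array's median and are not shown to be above background. Spn43Ab had 6.66, 6.37 and 5.58 in avl-RNAi discs, against 5.13, 4.83 and 4.68 in control discs. It was higher in avl-RNAi than in control discs, by 1.32 ± 0.29 (adjusted p = 0.00296, limma). At 92 h Spn43Ab had 6.73, 6.20 and 5.53 in avl-RNAi discs, against 6.15, 6.66 and 6.17 in control discs. Its avl-RNAi levels overlapped between the ages, and its control levels were lower at 116 h. In contrast, nec rose between these ages in avl-RNAi discs.

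Spn43Aa was lower, not higher, in avl-RNAi than in control discs. It had 5.94, 6.67 and 6.11 in avl-RNAi discs at 116 h, against 10.91, 11.17 and 11.55 in control discs, a fall of 4.97 ± 0.23 (31.3-fold, adjusted p = 3.13e-09, limma). At 92 h Spn43Aa was not called (-0.04 ± 0.23), at 5.04, 5.88 and 5.32 in avl-RNAi discs, against 5.41, 5.58 and 5.36 in control discs. At 168 h the avl-RNAi discs had 10.36, 10.50 and 9.93, which was above avl-RNAi discs of 116 h by 4.02 ± 0.23 and below control discs of 116 h by 0.95 on the log2 scale (-0.95 ± 0.23, adjusted p = 0.00835, limma). Serpin genes have similar sequences, and whether these probe sets also bind transcripts of relatives was not tested.

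Of 27 serpin genes besides nec, all measured, 0 were called at 92 h in limma (4 at an unadjusted p under 0.05), and 6 rose and 3 fell at 116 h (median 0.02). Over all genes 12.6% rose and 19.1% fell at 116 h. Spn42Da, whose products include an inhibitor of the furin proteases, had 9.85, 9.72 and 9.78 in avl-RNAi discs at 116 h, against 9.14, 9.13 and 9.11 in control discs. It rose by 0.66 ± 0.05 (1.58-fold, adjusted p = 4.31e-07, limma). Like nec, it fell in avl-RNAi discs between 116 and 168 h, by 0.45 ± 0.05. At 116 h Spn42Dc was 0.99 higher and Spn100A 4.37 lower in avl-RNAi than in control discs. Between 92 and 116 h Spn42Dc fell by 0.65 and Spn100A rose by 4.23 in control discs. In avl-RNAi discs 0 of 27 serpin genes fell between these ages.

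**Figure D5:**
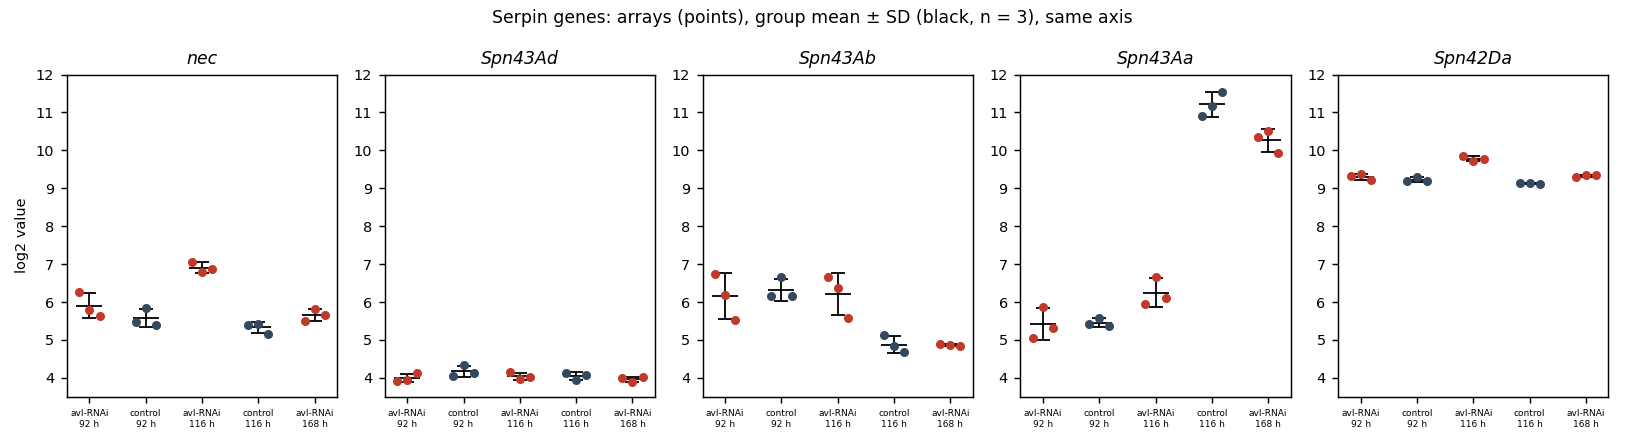
log2 values of nec, its neighbours Spn43Ad, Spn43Ab and Spn43Aa, and Spn42Da on the 15 arrays (points), with the group mean and SD in black (n = 3), on one axis. In avl-RNAi discs at 116 h nec, Spn43Ab and Spn42Da stand above control discs, and Spn43Aa stands far below them. Spn43Ad, which lies below every array's median, does not stand above them.

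Of 13 Turandot and thioester protein genes, 7 were measured. 0 were called at 92 h in limma, with 0 at an unadjusted p under 0.05 too. At 116 h 3 of 7 rose and 0 fell, against 12.6% and 19.1% of all genes. TotC, a stress-induced gene of the Turandot family, had 4.45, 5.45 and 4.16 in avl-RNAi discs at 116 h, against 3.22, 3.28 and 3.31 in control discs. It rose by 1.42 ± 0.22 (adjusted p = 0.00023, limma). The control levels were below the 25th percentile of every array and are not shown to be above background. Tep3 (0.48) and Tep4 (0.41) rose less. TotC was back at 3.25, 3.21 and 3.30 in avl-RNAi discs at 168 h, a fall of 1.43 ± 0.22 relative to 116 h (adjusted p = 0.000323, limma).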

How the data were processed

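Total RNA (200 ng) from wing discs was labelled as biotinylated cRNA and hybridized to Affymetrix arrays, per the labels' protocols. The authors deposited log2 values of 18952 probe sets. The log base was taken from their range, and background correction and normalization are not given in the sources used here; the submitters' processing notes name Partek and limma without a role. Platform annotation gave 13647 probe sets 1 symbol, 402 several and 4903 none; 13544 symbols were updated through the gene identifier. A gene was its probe set with the highest mean over 15 arrays.

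All genes were fitted with limma 3.58.1 (lmFit, eBayes; R 4.3.3) on the deposited values with 5 group means and 10 residual degrees of freedom, giving 7 comparisons with 2-sided tests and Benjamini-Hochberg adjustment over 11982 genes. The procedure was tested on simulated data. Members and lists were chosen with earlier results of these data known. The members are always named, with the 3 named genes most correlated with each. Genes of the lists were taken from the up to 4 called with the smallest adjusted p per list and comparison. Not all of these are printed, so the genes shown are a selection. The flagged results name every gene whose difference changed. Dif, the Spn43A neighbours of nec, the repeated gene values across comparisons, and the marker genes were chosen after their values were seen. Arrays give no read depth, so their number limits the precision.

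Alternatives were the compared groups alone, a replicate block, another prior, quantile normalization, median centring, filters on the lowest 25% and 50% of genes, averaged or separate probe sets, marker covariates, adjusted p under 0.01, and each array left out. Over the 30 pairs of same-numbered arrays of different groups, deviations from group means correlated from -0.409 to 0.501, 9 of them over 0.1, so replicate numbers were not taken to pair arrays.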

Additional observations from a re-analysis of the deposited data

Results flagged for a closer look

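The difference between avl-RNAi and control discs changed between 92 h and 116 h (the difference at 116 h minus that at 92 h, log2, limma, adjusted p under 0.05 over all genes) for 28 of 107 member and pathway list genes (26.2%), against 18.2% of all genes. The 107 genes include the 9 members, of which 7 changed. Members and lists were chosen with earlier results of these data known, so the higher share does not show an excess. Among the members the difference changed by 1.25 for Mtk, 1.01 for DptB, 0.96 for Def, 0.70 for PGRP-SB1, 0.83 for dl, 0.31 for Rel and 1.24 for nec. For Mtk, DptB, Def and PGRP-SB1 the difference was negative at 92 h and the control discs fell between the ages. Both results use the same control arrays of 92 h, as does the change itself, and are not independent. For dl, Rel and nec the avl-RNAi discs rose, and for dl the control discs also fell (-0.31). The second probe set of dl was at -0.02 ± 0.20 between the ages in avl-RNAi discs. Its change of 0.49 ± 0.28 was not called (adjusted p = 0.324, limma).

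Of the peptide and recognition lists, the difference changed by 0.26 for Listericin, 1.44 for pirk and -0.47 for GNBP3. Of the Toll list it changed by 1.27 for psh, 0.62 for Traf4, -1.42 for SPE, -0.60 for spirit and -0.32 for Tl. Of the Imd list it changed by 0.43 for IKKbeta, 0.27 for key, -0.24 for casp and -0.31 for scny.

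Of the serpins it changed by 1.5 for Spn43Ab, 0.86 for Spn42Dc, 0.57 for Spn42Da and 0.44 for Spn55B, and by -4.93 for Spn43Aa, -4.32 for Spn100A and -0.28 for Spn27A. Of the Turandot and thioester protein genes it changed by 1.33 for TotC and 0.64 for Tep3.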

How the results depend on the processing

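The counts of members called were 4 at 92 h, 3 at 116 h, 7 for the change between ages, 5 for control ageing, 5 for avl-RNAi ageing to 116 h, 2 for avl-RNAi discs of 168 h against those of 116 h and 3 for avl-RNAi discs of 168 h against younger control discs. At 92 h the count was 0 with the compared groups alone, 0 with the lowest 50% of genes left out (only dl, Rel and cact stay measured), 1 with the marker covariates, 1 at adjusted p under 0.01 and 1 to 4 with 1 array left out. The change between ages had 4 with the compared groups alone, 2 with the lowest 50% left out, 3 with covariates, 2 at adjusted p under 0.01 and 3 to 6 with 1 array left out. Control ageing had 2 with the lowest 50% left out and 0 with covariates. avl-RNAi ageing to 116 h had 3 with the compared groups alone, with the lowest 50% left out, with probe sets averaged and at adjusted p under 0.01, 2 with covariates and 3 to 4 with 1 array left out. The comparison of 168 h with 116 h in avl-RNAi discs had 0 with the lowest 50% left out and 0 with covariates, and that with younger control discs had 1 with covariates. Leaving out control 92 h replicate 3 and control 116 h replicate 2 together, chosen after seeing that their gut transcripts stood apart, gave 1 at 92 h and 3 for the change between ages. The count at 116 h stayed within 1.5 times under every alternative.

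With a replicate block, 3 calls ended: Def at 92 h (adjusted p = 0.0641, limma) and the changes of DptB (0.0557) and PGRP-SB1 (0.0559). The numbers are not shown to pair arrays.

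Of 1128 recomputed differences, 1000 kept their side of the threshold, 121 calls ended with the direction kept, 6 were gained and 1 reversed: cact in avl-RNAi ageing, -0.024 with probe sets averaged (adjusted p = 0.82). 48 uncalled differences changed sign and stayed uncalled, with sizes up to 0.44. The cause of these shifts was not tested.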
